A study of Homo sapiens with 8 samples.

Results

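The replication-type histone genes are the gene family that encodes the bulk of the histones packed onto newly copied DNA. The family was taken as every gene of the Molm13 table whose symbol starts with HIST1H, HIST2H, HIST3H or HIST4H, without the pseudogenes whose names end in PS and a number, and the same gene identifiers were read in the THP1 table. This gave 76 genes of 57992 in the Molm13 table: 6 of the linker histone H1, 17 of H2A, 23 of H2B, 15 of H3 and 15 of H4. In GENCODE 29, 70 of the 76 were protein-coding. Another 5 passed the rule on names but were typed there as pseudogenes: HIST2H2BA, HIST2H2BB, HIST2H2BD, HIST3H2BA and HIST2H3DP1. HIST2H2BC was not found there. RNA-seq of polyA RNA was made from Molm13 and THP1, established human AML cell lines of monocytic type. Each line carried a control hairpin (shCtrl) or hairpin RNA against the arginine methyltransferase PRMT9 (shPRMT9), both induced with DOX, so that the control cells had received DOX as well. There were 2 libraries in each of the 4 groups, 8 in all, and no source used here says that the 2 came from separate cultures, so the p-values measure only the spread between these libraries, which may be technical. The labels number the shPRMT9 libraries 1 and 2 without saying whether these are replicates of 1 hairpin or different hairpins. OCI also stands in the title of each library labelled THP1, with no explanation in the sources used here, so that every THP1 value rests on the label of the line.

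These genes differ from other protein-coding genes at the end of their mRNA. Their usual transcripts carry no polyA tail and end just after a short stem-loop that is bound by SLBP, the stem-loop binding protein, and they accumulate in S phase and are degraded when DNA synthesis stops. Some of the genes also make longer transcripts that run past the stem-loop and end in a polyA tail, and these have been described in cells that leave the cycle and differentiate. A library made from polyA RNA therefore samples the polyadenylated part of histone RNA and whatever else is carried over, and the values below are levels in polyA RNA, not total histone mRNA.

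Total counts ran from 18720950 to 27356870 per library, and TMM factors from 0.989 to 1.02. PRMT9 had 332 and 289 counts in Molm13 shCtrl and 41 and 56 in Molm13 shPRMT9, and 317 and 352 in THP1 shCtrl and 60 and 68 in THP1 shPRMT9, which matched the labels in all 8 libraries. Of 12 myeloid markers, 11 were above 1 CPM (counts scaled to a common library total) in Molm13 and 10 in THP1. CD14 was below 1 CPM in the shCtrl cells of both lines, and MEIS1, at 0.21 CPM, in those of THP1. No T lymphoid marker of 4 and no erythroid marker of 6 reached 1 CPM, and 1 of 7 B lymphoid markers (PAX5) did.

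The stem-loop is shown first because it is the feature by which the ends of these transcripts can be read. In the GENCODE 29 transcripts (GRCh38), 33 of the 76 genes held a match to it, in 5 versions, and the capitals mark the arms that pair with each other.
H2A, H2B and H3 genes such as HIST1H2AC, HIST1H2BG, HIST2H2BE, HIST3H2A and HIST1H3H (18 genes): GGCUCUuuucAGAGCC
H4 genes such as HIST1H4H and HIST4H4 (5 genes): GGCCCUuuucAGGGCC
HIST1H2BC, HIST1H2BD, HIST1H2BF, HIST1H3G and HIST3H3 (5 genes): GGCUCUuuuaAGAGCC
HIST1H4I, HIST2H4A and HIST2H4B (3 genes): GGCCCUuuuuAGGGCC
HIST1H2AG and HIST2H2BD (2 genes): GGCUCUuuucAGGGCC
Genes of H2A, H2B and H3 shared the first version, the H4 genes had stems of their own, and the versions differed by few bases. In 23 of the 33 genes the annotation holds a transcript that runs 100 or more bases past the loop, for example 1128 bases in HIST1H2AC, 1761 in HIST1H2AG and 1655 in HIST1H4H. In the other 10 genes every annotated transcript that holds the loop ended within 100 bases of it, for example 39 bases past it in HIST1H2BD, which has a further transcript without the loop. The remaining 43 genes had no match, and since 38 of the 75 gene models found there hold no UTR at all, the missing match says only that these letters are not in the annotated sequence.

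Many histone genes were barely present in polyA RNA. In all 8 libraries 14 of the 76 genes had 0 counts, 12 of them protein-coding in GENCODE 29. A mean below 10 counts per library was found for 56 genes in Molm13 and 52 in THP1. Near-identical copies bear on this: of the 75 genes found in GENCODE 29, 30 could be told from every other transcript along their whole length in stretches of 50 bases, while 20 had less than 50% unique stretches, 6 of these none at all. Among the 14 genes at 0, 7 were of the kind with less than 50% unique sequence, and how the counting treated reads that match several genes is not given in the sources used here. A gene listed at 0 is therefore not shown to be silent.

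In Molm13, the summed level of the histone genes was higher after PRMT9 KD. Summed over the 76 genes, 589 and 586 counts in the shCtrl libraries stood against 3798 and 4335 in the shPRMT9 libraries. After normalization this was 29.4 ± 0.783 against 203 ± 0.460 CPM (SD, n = 2), 6.92 times as much. The same sums in THP1 were 1760 and 1935 counts in shCtrl and 1687 and 1618 in shPRMT9, or 69.1 ± 0.640 against 66.0 ± 1.29 CPM, a ratio of 0.955. With 2 libraries against 2 an exact permutation test cannot give a p below 0.33, so the sums are given as values. Bulk RNA does not tell fewer cells of a type from less RNA per cell, and this holds for every level given here.

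All 5 classes rose in sum in Molm13, but by unequal amounts. The H2A sum rose most, from 9.61 ± 0.663 to 106 ± 1.77 CPM, 11.0 times as much. The linker histone H1 followed with 3.14 ± 0.908 against 21.6 ± 1.58 CPM (6.90 times), and H2B with 11.5 ± 0.101 against 60.1 ± 1.28 CPM (5.22 times). H3 went from 1.78 ± 0.301 to 4.78 ± 0.188 CPM (2.69 times) and H4 from 3.33 ± 0.136 to 10.8 ± 1.74 CPM (3.25 times). In every class both shPRMT9 libraries of Molm13 lay above both shCtrl libraries. Single genes carried much of these sums, so a ratio does not describe every gene of its class. HIST1H1C had 43 and 54 of the 51 and 74 H1 counts in Molm13 shCtrl and 413 and 424 of 426 and 437 in shPRMT9. HIST1H2AC had 107 and 106 of the 206 and 179 H2A counts, and 1532 and 1803 of 1958 and 2281 in shPRMT9. HIST1H3H had 20 and 22 of the 32 and 39 H3 counts, and 70 and 86 of 92 and 99 in shPRMT9. In THP1 the ratios of the classes lay between 0.935 for H2B and 1.00 for H3, and the groups overlapped or lay close to each other.

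**Figure D1:**
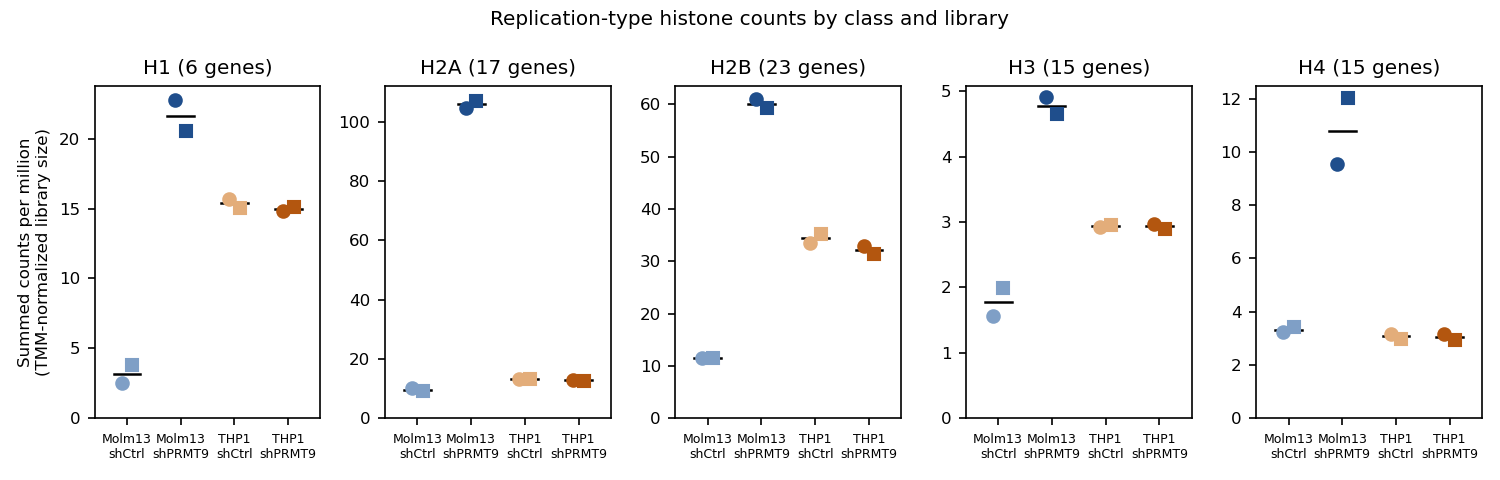
Counts of the histone genes summed by class (H1, H2A, H2B, H3, H4) in each library, as CPM of the normalized library size on a linear axis from 0; circles are replicate 1, squares replicate 2 and bars the mean of the 2 libraries. The H2A sum stands near 106 CPM in Molm13 shPRMT9 and at 9.61 to 13.3 CPM on average in the other 3 groups.

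Of the 76 genes, 23 passed the filter on low counts in Molm13 and were tested, and the other 53 had at most 13 counts in any Molm13 library. With edgeR's quasi-likelihood test and Benjamini-Hochberg adjustment over 16446 genes, 21 of the 23 were higher in shPRMT9 at an FDR below 0.05, where 33.4% of all genes tested were higher. None of the 23 was lower, where 33.5% of all genes were, and none was lower at an unadjusted p below 0.05 or with DESeq2 or limma-voom. Of these 23 genes, 10 passed the filter only through the shPRMT9 libraries, so that a rise was built into their being tested. The 11 that would have passed on the shCtrl libraries alone were all higher: 1 gene of H1, 2 of H2A, 6 of H2B, 1 of H3 and 1 of H4. By the limits of the study for DEGs (FDR below 0.05, fold change above 1.5 and an RPKM above 1 in at least 1 library), 17 were upregulated and 0 downregulated, beside 11.4% and 11.4% of all genes. Of the 17 DEGs, 14 had at least 90% unique sequence. The median log2 fold change of the 23 was 1.97, beside 0.00047 over all genes, and the range was −0.08 to 3.97. All 21 genes with a call had both shPRMT9 libraries above both shCtrl libraries, a separation seen upward in 41.5% of all genes tested.

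HIST1H2AC, an H2A gene of the large cluster on chromosome 6 (chr6:26124145-26139116, plus strand, hg38), had the largest fold change of the 23. It had 107 and 106 counts in the shCtrl libraries of Molm13 and 1532 and 1803 in the shPRMT9 libraries, that is 5.32 ± 0.0775 against 83.4 ± 2.15 CPM. The log2 fold change was 3.97 ± 0.07 (SE; adjusted p = 2.27e-37, edgeR's quasi-likelihood test). It ranked 28 by fold among the 16446 genes tested. Its share of all histone counts went from 18.1% in shCtrl to 41% in shPRMT9. In THP1 the same gene had 121, 124, 105 and 124 counts, with the shCtrl and shPRMT9 libraries overlapping (log2 fold change −0.00285 ± 0.15, adjusted p = 0.99).

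HIST1H2BD, an H2B gene of the same cluster, had 41 and 44 counts against 514 and 581 in Molm13, a log2 fold change of 3.68 ± 0.12 (adjusted p = 6.04e-29, edgeR). Its THP1 libraries had 57 and 65 counts in shCtrl and 47 and 45 in shPRMT9, which did not overlap but did not pass the test (−0.31 ± 0.22, adjusted p = 0.29). HIST1H1C, the linker histone gene with the highest level, had 43 and 54 counts against 413 and 424 in Molm13 (3.11 ± 0.13, adjusted p = 5.94e-25, edgeR). In THP1 it was already high, with 355 and 366 counts in shCtrl and 339 and 347 in shPRMT9 (0.02 ± 0.09, adjusted p = 0.87). With shPRMT9, Molm13 thus reached 21.0 ± 1.49 CPM of HIST1H1C, above the 13.6 ± 0.351 CPM of THP1 shCtrl.

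HIST1H2AG had 59 and 47 counts in Molm13 shCtrl and 347 and 405 in shPRMT9 (2.82 ± 0.12, adjusted p = 8.94e-24, edgeR), and 73, 95, 81 and 83 in THP1. HIST1H4H, the H4 gene with the most counts, went from 28 and 22 to 125 and 175 in Molm13 (2.58 ± 0.20, adjusted p = 1.40e-15, edgeR) and had 31, 34, 35 and 32 counts in THP1. HIST1H3H, the H3 gene with the highest level, had 20 and 22 against 70 and 86 counts in Molm13 (1.89 ± 0.24, adjusted p = 2.38e-09, edgeR) and 28, 30, 30 and 33 in THP1. For each of these genes the Molm13 groups stood apart, and none was called in THP1. HIST1H2BK had 37 and 26 against 148 and 178 counts in Molm13 (2.37 ± 0.18, adjusted p = 1.26e-15, edgeR) and 105, 97, 92 and 83 in THP1. Only 25.9% of its 50-base stretches are unique, so its counts are uncertain.

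Of the smaller members, HIST1H2BC rose from 30 and 27 to 115 and 108 counts (1.97 ± 0.20) and HIST1H2BJ from 15 and 20 to 71 and 81 (2.11 ± 0.25), with adjusted p values of 1.31e-11 and 5.62e-10 by edgeR. HIST1H2BG, HIST3H2A, HIST1H2BE and HIST2H2BF were tested only because of their shPRMT9 counts, so their values add nothing on the direction of the family. HIST1H2BG had 7 and 7 counts against 42 and 55 (2.77 ± 0.35, adjusted p = 2.72e-09, edgeR). HIST3H2A, an H2A gene on chromosome 1, had 10 and 3 counts against 27 and 27 (2.04 ± 0.42, adjusted p = 4.44e-05, edgeR), and its log2 fold change was 3.08 without shCtrl replicate 1 and 1.45 without shCtrl replicate 2. HIST1H2BE had 10 and 7 against 27 and 21 and HIST2H2BF 5 and 7 against 19 and 15 counts, with adjusted p values of 0.00112 and 0.00477 by edgeR, and stayed below an RPKM of 1. The call on HIST2H2BF was lost without shCtrl replicate 1 (adjusted p = 0.0854, edgeR), without shPRMT9 replicate 1 (0.139) and with DESeq2 (0.0991), and that on HIST1H2BE without shPRMT9 replicate 1 (0.0721).

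Genes with very few control counts are better read as ratios of counts. HIST1H4D, also tested only because of its shPRMT9 counts, had 1 and 1 counts in Molm13 shCtrl and 14 and 12 in shPRMT9, a ratio of 13.0 with an exact 95% interval of 3.26 to 113, which covers counting error only. Not every histone gene had a call. HIST1H4C, an H4 gene, had 7 and 11 counts in shCtrl and 10 and 7 in shPRMT9 (−0.08 ± 0.50, adjusted p = 0.90, edgeR). The other tested gene without a call was HIST1H4I, named after its values were seen, with 11 and 6 against 7 and 25 counts (0.90 ± 0.47, adjusted p = 0.0907, edgeR). The H1 genes HIST1H1E (3, 10, 7 and 7 counts) and HIST1H1B (3, 10, 1 and 1) and the H3 genes HIST1H3J (9, 12, 8 and 3) and HIST1H3B (1, 1, 9 and 1) were too low for the test in Molm13. Of these, HIST1H1B and HIST1H3J had both shPRMT9 libraries below both shCtrl libraries, and without the filter on low counts HIST1H1B was the 1 histone gene called lower in Molm13.

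**Figure D2:**
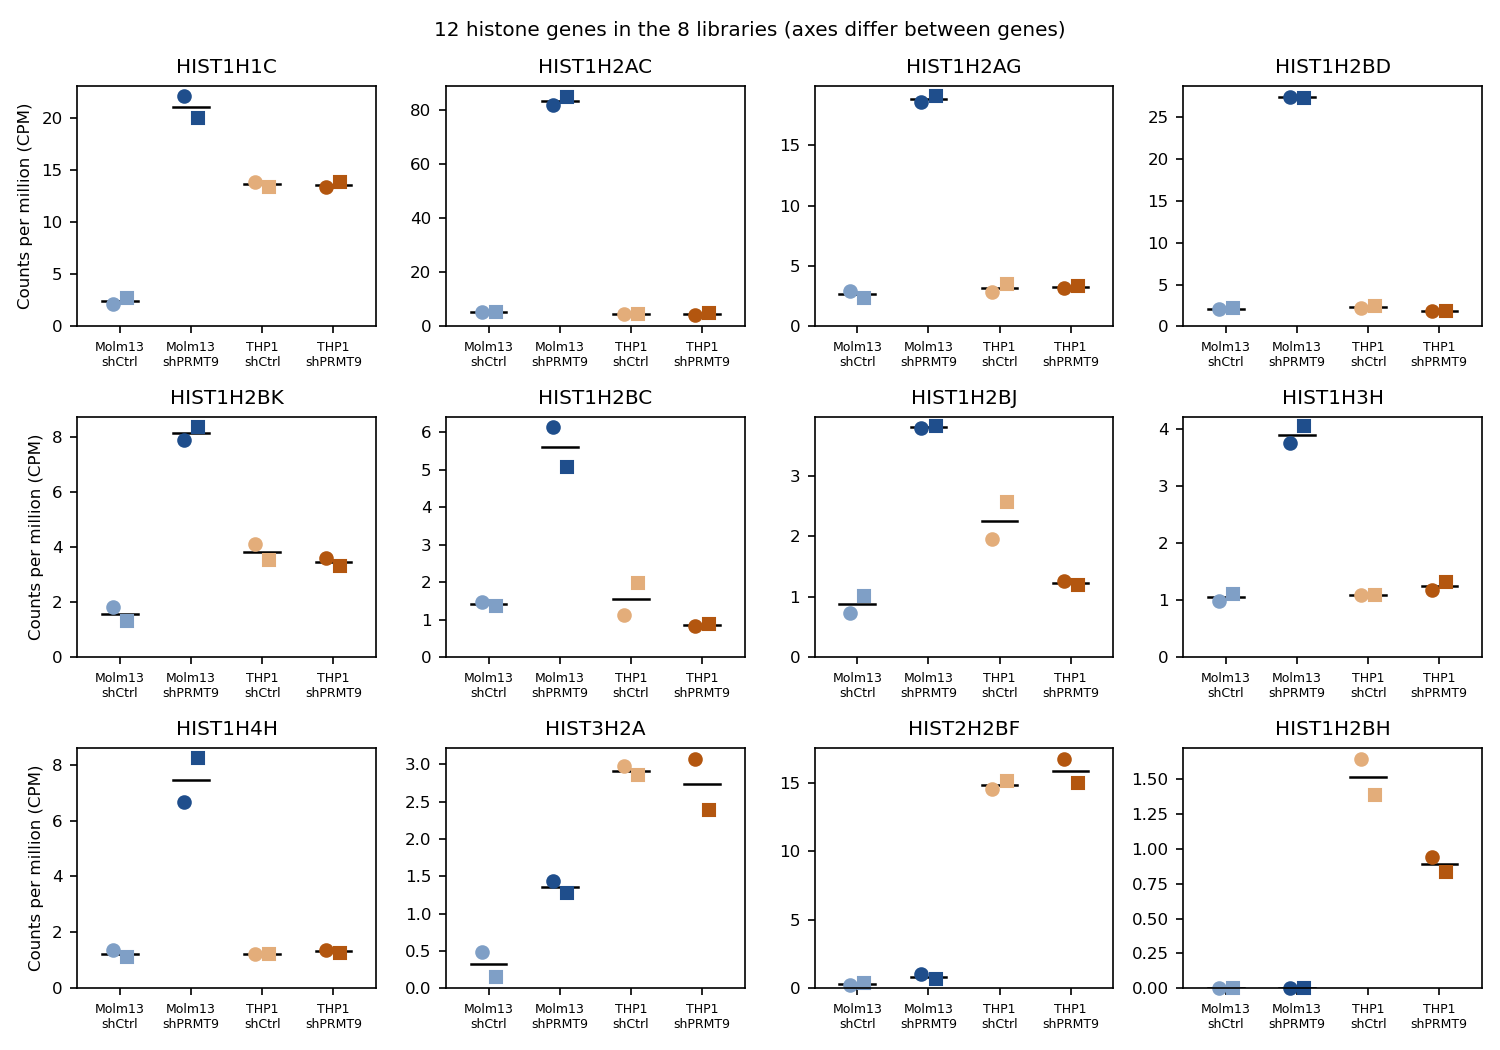
Level of 12 histone genes in each of the 8 libraries, in CPM on linear axes from 0 that differ between genes; circles are replicate 1, squares replicate 2 and bars the mean of the 2 libraries. The first 10 genes stand higher in both Molm13 shPRMT9 libraries than in both Molm13 shCtrl libraries; HIST2H2BF (14.8 CPM in THP1 shCtrl) and HIST1H2BH (0 counts in Molm13) differ mainly between the lines.

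In THP1 few genes of the family had a call. Of the 76 genes 24 were tested, and 0 were higher at an FDR below 0.05 with edgeR's quasi-likelihood test, where 19.0% of 16294 genes were higher. At an unadjusted p below 0.05, 1 gene was higher, and DESeq2 called 0 higher. Lower were 3 genes, beside 18.6% of all genes, and all 3 were H2B genes, as were 11 of the 24 tested. By the DEG limits 0 were upregulated (3.82% of all genes) and 2 downregulated (2.39%). The median log2 fold change of the 24 was −0.16, and the range −1.003 to 0.57. Both shPRMT9 libraries lay above both shCtrl libraries for 4 of the 24 genes (29.7% of all genes tested) and below them for 9 (36.8%).

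The 3 H2B genes that fell in THP1 were called higher in Molm13, HIST1H2BE there tested only because of its shPRMT9 counts. HIST1H2BJ had 50 and 70 counts in THP1 shCtrl and 32 and 30 in shPRMT9 (−0.85 ± 0.25, adjusted p = 0.00721, edgeR). HIST1H2BC had 29 and 54 against 21 and 22 (−0.85 ± 0.32, adjusted p = 0.0353, edgeR), and HIST1H2BE 23 and 33 against 9 and 17 (−1.003 ± 0.38, adjusted p = 0.0401, edgeR). The groups did not overlap for any of the 3, but the shCtrl replicates of HIST1H2BC differed by more than the group means did. Without THP1 shCtrl replicate 2 none of the 3 was called by edgeR (adjusted p = 0.123 for HIST1H2BJ, 0.562 for HIST1H2BC and 0.307 for HIST1H2BE), and DESeq2 called 0. HIST1H2BC also lost its call without shPRMT9 replicate 1 (adjusted p = 0.0935, edgeR) or shPRMT9 replicate 2 (0.0636), and HIST1H2BE without shPRMT9 replicate 1 (0.336). HIST1H2BJ and HIST1H2BC were the histone DEGs of opposite direction in the lines.

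Among the other THP1 genes, HIST1H2BH had 42 and 38 counts in shCtrl and 24 and 21 in shPRMT9 and missed the threshold (−0.73 ± 0.30, adjusted p = 0.0516, edgeR). HIST1H2BG pointed up with 34 and 27 against 37 and 48 counts (0.57 ± 0.28, adjusted p = 0.11, edgeR). The H1 genes HIST1H1E (26 and 20 against 14 and 11 counts) and HIST1H1B (12 and 24 against 13 and 8) had log2 differences of −0.78 and −0.67 that did not pass (adjusted p = 0.123 and 0.261, edgeR). Of the 21 genes that rose in Molm13, 17 were tested in THP1, where 14 had no call and 3 were lower.

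A call in 1 line and none in the other does not show a difference, so the difference itself was tested in a fit of all 8 libraries. Of 30 histone genes tested, 0 had a higher effect of shPRMT9 in THP1 than in Molm13 and 19 a lower one at an FDR below 0.05 with edgeR's quasi-likelihood test, beside 22.8% and 19.4% of the 19288 genes tested. Of the 19, 18 would have passed the filter without the Molm13 shPRMT9 libraries, HIST1H2AI being the exception. None was higher at an unadjusted p below 0.05 or with DESeq2. The 5 with the smallest adjusted p were HIST1H2AC (difference of log2 fold changes −3.96 ± 0.17), HIST1H1C (−3.07 ± 0.17), HIST1H2BD (−3.98 ± 0.26), HIST1H2AG (−2.75 ± 0.23) and HIST1H2BK (−2.47 ± 0.26). Each line has its own table and its own library codes, and no source used here says whether both lines were sequenced together. Line, table and any difference of sequencing run cannot be told apart in this difference, whereas each KD effect lies within 1 table.

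**Figure D3:**
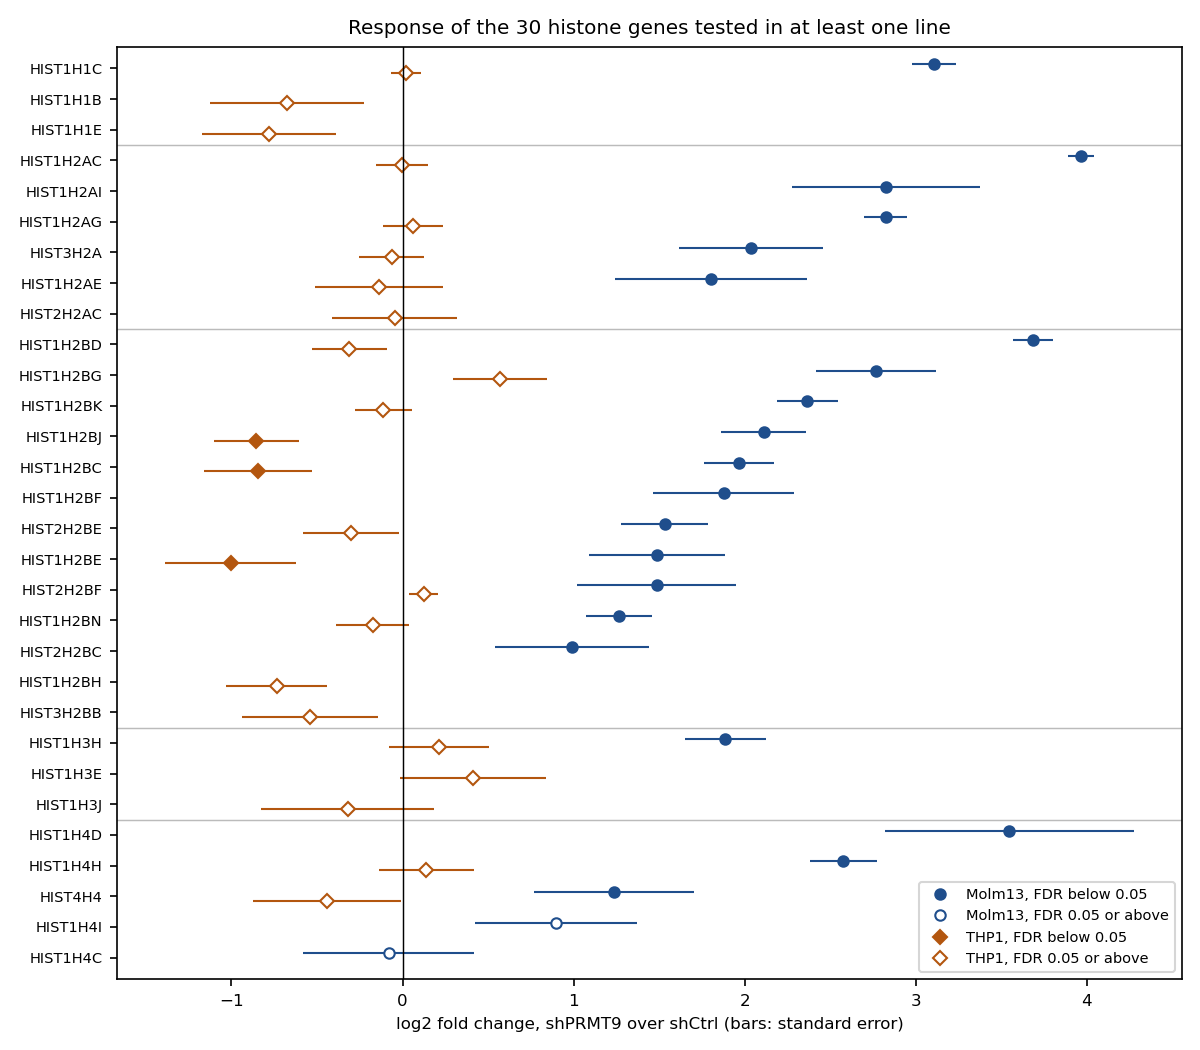
Log2 fold change of shPRMT9 over shCtrl for the 30 histone genes tested in at least 1 line, ordered by class, in Molm13 (blue circles) and THP1 (orange diamonds); bars are standard errors and filled symbols have an FDR below 0.05. In Molm13 21 of 23 symbols are filled and to the right of 0, and in THP1 3 of 24 are filled, all to the left. Of the 23 genes in Molm13, 10 passed the filter on low counts only through their shPRMT9 libraries.

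The lines also differed before KD. In shCtrl, the histone counts summed to 2.35 times as many CPM in THP1 as in Molm13, with the ratio highest for H1 (4.90) and lowest for H4 (0.924). With an FDR below 0.05 by edgeR and a fold change above 2, 12 of 30 genes tested were higher in THP1 (beside 21.7% of all genes). None was lower (beside 24.3%), and 0 were lower by this fold at an unadjusted p below 0.05. Of the 12, HIST1H2BH, HIST1H1E, HIST1H3E and HIST3H2BB were too low for the test in Molm13 alone. For these genes a higher level in THP1 was built into their being tested. HIST2H2BF had 5 and 7 counts in Molm13 shCtrl and 371 and 413 in THP1 shCtrl (log2 difference 5.59 ± 0.22, adjusted p = 4.98e-42, edgeR), and made up 21.2% of all histone counts there. Its exons overlap those of FCGR1A on the other strand, whether the counting used strand is not stated, and FCGR1A had 11.0 CPM in Molm13 shCtrl and 9.28 in THP1 shCtrl.

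HIST1H2BH, whose sequence is fully unique, had 0 counts in all 4 Molm13 libraries, so that THP1 shCtrl was at least 10.1-fold higher against a floor of 3 counts per library. HIST1H1C was 5.57-fold higher in THP1 (2.48 ± 0.14, adjusted p = 1.72e-30, edgeR), HIST3H2A, with 76 and 78 counts, 8.76-fold (3.13 ± 0.34, adjusted p = 4.65e-14) and HIST1H2BK 2.40-fold (1.26 ± 0.21, adjusted p = 6.03e-08). The difference of HIST3H2A rests on 10 and 3 counts in Molm13 and was 4.19 without Molm13 shCtrl replicate 1 and 2.56 without replicate 2. The leading H2A and H4 genes had no call: HIST1H2AC had a log2 difference of −0.21 ± 0.14 (adjusted p = 0.152, edgeR) and HIST1H4H one of −0.04 ± 0.29 (adjusted p = 0.912). Of the 12 genes, 9 had at least 90% unique sequence. The tables may not treat copies alike: the replication-independent H3 gene H3F3A, looked at after its values were seen, had 259 to 288 counts per library in Molm13 and 8060 to 12027 in THP1, while the related H3F3C had 357 to 482 in Molm13 and 1 to 5 in THP1.

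The histone counts were concentrated in few genes, and KD in Molm13 made them more so. In Molm13 shPRMT9, HIST1H2AC, HIST1H2BD, HIST1H1C, HIST1H2AG, HIST1H2BK and HIST1H4H held 81.7% of them. In Molm13 shCtrl the leading 6 genes, with HIST1H2BN in place of HIST1H4H, held 54.7%. In THP1 the leading genes were HIST2H2BF and HIST1H1C in both groups, with 40.7% together in shCtrl and 45.0% in shPRMT9. Per length, HIST1H2AC was at 3.19 RPKM in Molm13 shCtrl and 49.97 in shPRMT9, HIST1H1C at 3.78 and 32.7, HIST1H2BD at 2.44 and 31.5 and HIST1H2BK at 4.12 and 21.4. HIST1H2BK was the highest of the 4 in shCtrl and the lowest in shPRMT9.

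The ends of the transcripts were set beside the response for the 11 genes that would have passed the filter on the Molm13 shCtrl libraries alone, all of which rose. Of these, 7 were among the 23 genes with a transcript running 100 or more bases past the stem-loop, 1 (HIST1H2BD) among the 10 whose transcripts with a loop end near it, and 3 among the 43 without a match. With every one of the 11 higher, the direction of the response could not separate these kinds of genes, and the sizes of their changes were not compared. The longer gene models held 62.6% of all histone counts over the 8 libraries. A polyA signal (AATAAA or ATTAAA in the last 60 bases of a transcript) was found in at least 1 transcript of 25 histone genes, both transcripts of HIST1H2BD among them. Of the 11 genes, 9 had such a signal and 2 (HIST1H1C and HIST1H2BK, whose gene models hold no UTR) did not. Genes with the signal held 67.6% and 64.2% of the histone counts in Molm13 shCtrl, 79.1% and 80.6% in Molm13 shPRMT9, and 58.1% to 61.2% in the THP1 libraries. The shares are over annotated models, so they describe the genes and not which transcript was sequenced.

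The genes lie in a few clusters, and position is given for the same 11 genes. The larger stretch on chromosome 6 (chr6:25726132-26285638, hg38) holds 34 of the 76 genes and 5 of the 11, and the smaller one (chr6:27125897-27893843) holds 21 and 5 of the 11. Chromosome 1 holds 20, of which HIST2H2BE is among the 11, with 23 and 19 counts in Molm13 shCtrl and 52 and 70 in shPRMT9 (1.53 ± 0.25, adjusted p = 9.74e-07, edgeR). HIST4H4, the H4 gene on chromosome 12, passed the filter only through its shPRMT9 counts (8 and 5 against 11 and 20).

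Several H2A and H2B genes lie head to head with a short shared promoter, and the partners of a pair differed in their values. The promoter window of HIST1H2AC, given by RefSeq in GRCh38.p14 at chr6:26123922-26124221 on the plus strand, covers the 218 bases between HIST1H2BC and HIST1H2AC. That of HIST1H2AG at chr6:27132793-27133092, plus strand, covers most of the 291 bases between HIST1H2BJ and HIST1H2AG. Capitals mark CCAAT, the H2B octamer ATTTGCAT and TATAAA, each in either direction.
HIST1H2AC: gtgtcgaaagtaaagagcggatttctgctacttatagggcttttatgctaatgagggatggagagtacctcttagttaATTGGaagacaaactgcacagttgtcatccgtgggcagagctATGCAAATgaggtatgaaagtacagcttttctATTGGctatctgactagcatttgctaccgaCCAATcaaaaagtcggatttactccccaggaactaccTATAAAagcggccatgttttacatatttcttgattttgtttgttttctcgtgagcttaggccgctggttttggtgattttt
HIST1H2AG: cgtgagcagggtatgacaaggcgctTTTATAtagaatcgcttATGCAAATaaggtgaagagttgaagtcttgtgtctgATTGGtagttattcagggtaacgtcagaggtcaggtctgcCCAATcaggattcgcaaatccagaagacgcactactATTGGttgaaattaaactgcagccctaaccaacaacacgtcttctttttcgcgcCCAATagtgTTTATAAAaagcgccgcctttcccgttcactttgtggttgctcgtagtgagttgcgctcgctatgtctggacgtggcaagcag
In the first pair, the log2 fold changes in Molm13 were 1.97 for HIST1H2BC and 3.97 for HIST1H2AC, and in THP1 −0.85 and −0.00285. In the second they were 2.11 for HIST1H2BJ and 2.82 for HIST1H2AG in Molm13, and −0.85 and 0.06 in THP1. In each pair the H2B partner had the lower value in both lines, though the difference within a pair was not tested. Another pair, HIST1H2BG and HIST1H2AE with 282 bases between them, had the opposite order, with 2.77 and 1.80 in Molm13 and 0.57 and −0.14 in THP1. Both genes of this pair were tested in Molm13 only because of their shPRMT9 counts, so a rise there was built in.

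Promoter windows of 300 bases were at hand for 65 of the 76 genes. Searched in either direction, CCAAT was in 55 of them (84.6%, beside 34.6% of all 35116 promoters), TATAAA in 43 (66.2%, beside 11.5%), ATTTGCAT in 26 (beside 1.8% of all promoters) and the E2F-type motif TTTCGCGC in 12 (18.5%, beside 0.5%). CCAAT was in all 16 H2A and 18 H2B promoters but in 3 of 13 H4 promoters, and ATTTGCAT was in 14 of 18 H2B and 11 of 16 H2A promoters. Of the 17 genes upregulated by the DEG limits in Molm13, 16 had a promoter, of which 14 held CCAAT, 12 TATAAA, 9 ATTTGCAT and 4 TTTCGCGC. Some of these DEGs, such as HIST3H2A and HIST1H2AE, passed the filter on low counts only through their shPRMT9 libraries. Genes that lie head to head share promoter bases and are counted separately. A match is a run of letters, not a site shown to be bound.

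Most genes of a list for transcription and end processing of histone mRNA fell in Molm13, while the polyA levels of the histone genes rose. Of its 18 genes, all tested, 13 were lower and 1 higher at an FDR below 0.05 by edgeR, with a median log2 fold change of −0.41. The list also holds general factors of polyA mRNA ends, so its count is not one of histone-specific factors. Such genes are CPSF1 (−0.14) and CPSF4 (−0.94), both among the 13, and FIP1L1 (−0.11, no call). For this and the lists that follow, 33.5% of all genes tested were lower and 33.4% higher in Molm13, and 18.6% and 19.0% in THP1, by the same limit. CASP8AP2, a factor of the histone locus body, fell by 1.14 (adjusted p = 8.42e-27), CPSF2, a subunit of the cleavage complex, by 0.94 (5.45e-26) and SLBP by 0.90 (5.96e-24), all by edgeR. SLBP had 2607 and 2469 counts in Molm13 shCtrl and 1263 and 1451 in shPRMT9. In THP1 1 of the 18 was lower and 5 were higher, with CPSF2 at 0.39 (adjusted p = 1.63e-09), the cap-binding protein gene NCBP1 at 0.21 (2.77e-05) and the scaffold gene SYMPK at 0.20 (0.000101, all edgeR). SLBP had 3325 and 3670 counts in THP1 shCtrl and 3096 and 3070 in shPRMT9 (−0.09, adjusted p = 0.0740, edgeR).

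Genes of histone mRNA decay are counted in the same way. In Molm13, 13 of 16 were lower and 1 higher (median −0.39), with LSM4 of the LSM ring at −0.91, the stem-loop exonuclease ERI1 at −0.90 and the decapping enzyme DCP2 at −0.52 (adjusted p = 7.18e-24, 6.99e-21 and 1.28e-16, edgeR). In THP1, 3 were higher and 4 lower, near the shares over all genes, and the exonucleases XRN1 and DIS3 were higher by 0.48 and 0.39 and DCP2 lower by −0.26 (adjusted p = 2.96e-09, 7.06e-09 and 3.60e-06, edgeR). Among histone chaperones, 16 of 19 were lower and 2 higher in Molm13, with the smallest FDR for ASF1B (−1.33), CHAF1A (−0.92) and MCM2 (−0.80). In THP1, 7 were lower and 5 higher, with NASP at 0.38, HJURP at −0.43 and ASF1B at −0.32 (adjusted p = 4.65e-11, 1.92e-08 and 2.74e-06, edgeR).

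The genes listed as replication-independent histones, most of which are made from ordinary polyadenylated mRNA, were mixed. In Molm13, 2 of 10 tested were higher and 5 lower, with a median of −0.12. H1F0, the H1 variant of non-dividing cells, had 98 and 96 counts in Molm13 shCtrl and 322 and 371 in shPRMT9 (1.84 ± 0.11, adjusted p = 3.50e-19, edgeR). H2AFZ, the variant H2A.Z, fell from 7345 and 7125 to 2835 and 3239 counts (−1.25 ± 0.03, adjusted p = 2.35e-34, edgeR), and H2AFV fell by 0.78 (adjusted p = 5.97e-22, edgeR). In THP1, 2 of 11 were higher and 6 lower, with H2AFX at −0.51, H1F0 at 0.42 and H3F3A at −0.33 (adjusted p = 3.91e-11, 1.25e-10 and 6.72e-08, edgeR).

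Genes of the cell cycle moved opposite to the histone genes in Molm13; some of them, such as SLBP, CASP8AP2, NASP and MCM2, are also in the lists above. All 42 G1/S and S phase genes were lower at an FDR below 0.05 by edgeR, 34 of them as DEGs, with a median log2 fold change of −0.95, and TYMS, MCM4 and PCNA fell by 1.14, 0.93 and 1.05. Of 52 G2/M genes 49 were lower and 0 higher (median −0.68), with HMGB2 at −1.62, TMPO at −1.05 and MKI67 at −0.97. In THP1, 17 of the 42 S phase genes were lower and 6 higher (median −0.07), with CCNE2 at −0.66, NASP at 0.38 and MCM5 at 0.40. There 45 of the 52 G2/M genes were lower and 1 higher (median −0.21), with HMGB2 at −1.31, NUSAP1 at −0.43 and TOP2A at −0.31. The effect of shPRMT9 was higher in THP1 than in Molm13 for 42 of 42 S phase genes at an FDR below 0.05 in the fit of 8 libraries. Over all genes tested in that fit this share was 22.8%.

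Of 10 cell cycle inhibitors tested in Molm13, 6 were higher and 1 lower: the antiproliferative gene BTG2 rose by 1.77 and CDKN1A, which encodes p21, by 0.65, and CDKN2C fell by 0.62 (adjusted p = 4.22e-33, 2.51e-25 and 8.49e-19, edgeR). In THP1, 3 were higher and 5 lower, with CDKN1A at 1.29, RB1 at 0.48 and CDKN2C at −0.73 (adjusted p = 8.60e-11, 5.28e-11 and 2.40e-15, edgeR). The 12 myeloid markers summed to 1770 CPM in Molm13 shCtrl and 2480 in shPRMT9, and to 2780 and 4080 in THP1, with LYZ, the lysozyme gene, making up much of this (632 and 1000 CPM in Molm13, 1900 and 3050 in THP1). Their mean was higher in shPRMT9 for 10 of the 12 in Molm13, all but MPO (60.9 and 41.3 CPM) and FCGR1A (11.0 and 8.10), and for 8 of the 12 in THP1. The marker sums of the other lineages were 42.8 and 40.4 CPM (B lymphoid), 0.0745 and 0.231 (T lymphoid) and 0.0246 and 0.124 (erythroid) in Molm13 shCtrl and shPRMT9. In THP1 they were 5.03 and 13.9, 0.549 and 0.435, and 0.246 and 0.119. Of these markers, all but PAX5 below 1 CPM, 4 of 7 B lymphoid, 3 of 4 T lymphoid and 1 of 6 erythroid were higher in Molm13 shPRMT9. In THP1 3, 1 and 2 were higher. The directions of the markers were not set beside a share over all genes. The part of cell cycle and myeloid genes in the histone values was not tested.

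**Figure D4:**
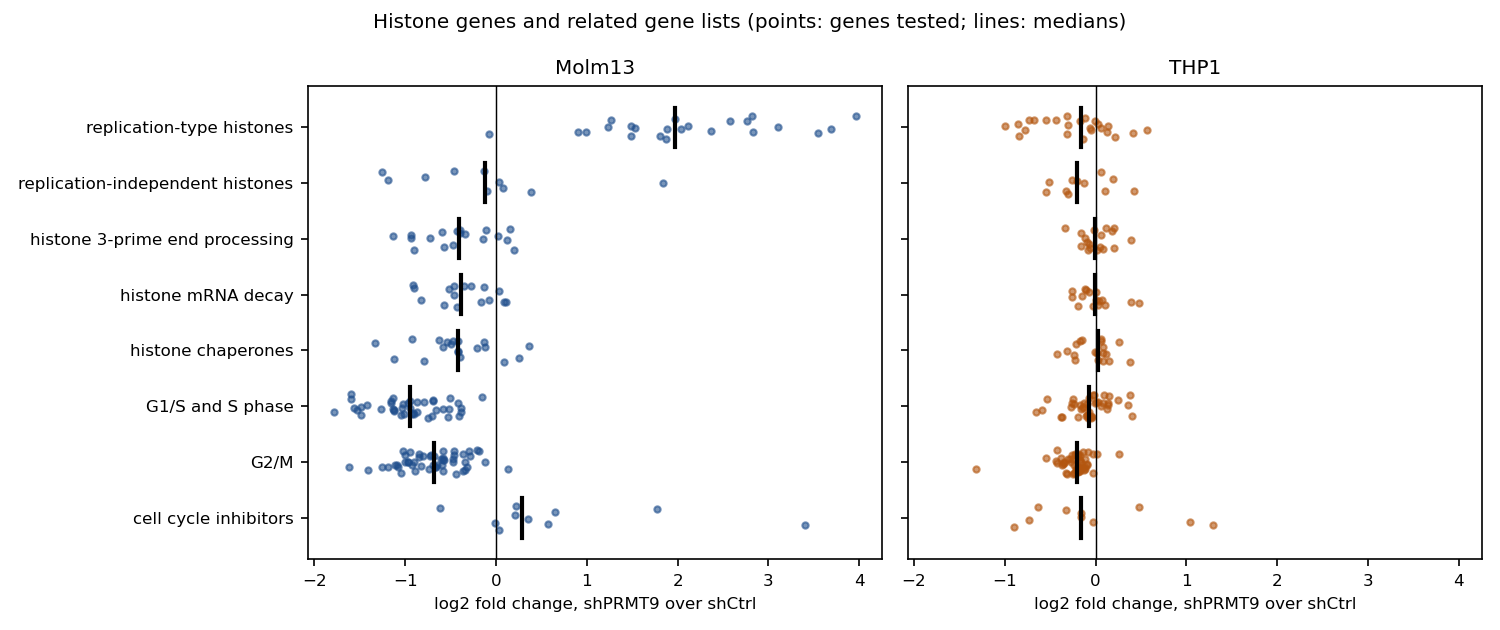
Log2 fold change of shPRMT9 over shCtrl for each tested gene of the histone family and of 7 related lists, in Molm13 (left) and THP1 (right); black lines are medians and the vertical scatter has no meaning. In Molm13 the histone median is 1.97 while the S phase median is −0.95, and in THP1 the medians are −0.16 and −0.07. Of the 23 histone genes in Molm13, 10 passed the filter on low counts only through their shPRMT9 libraries, so their rise was built into the histone median.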

How the data were processed

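PolyA RNA-seq libraries of Molm13 and THP1 with shCtrl or shPRMT9 were analysed, 2 per group and 8 in all. The deposited values are counts, whole numbers of reads per gene that the authors did not normalize; the submitters' processing notes name TopHat2 2.0.8, HTSeq 0.11.2, edgeR 3.30.3 and build hg38. The strand setting, the read length and the handling of reads with several matches are not given in the sources used here. The THP1 column names carry the letters OCI and were matched to the samples by the library codes in their titles.

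The versions used for all further steps were DESeq2 1.42.0, edgeR 4.0.16 and limma 3.58.1, run in R 4.3.3. Each line was fitted alone on all genes with TMM, filterByExpr and the quasi-likelihood test, shPRMT9 against shCtrl, Benjamini-Hochberg adjustment and no replicate block, and 8 libraries together for the differences between lines. Standard errors were derived from the F statistic and the fold change. Scripts were tested on simulated data. CPM and RPKM are over library totals, and class sums use TMM-normalized sizes.

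The genes and lists were chosen with earlier results of these data known. Named are the 3 highest genes per class by RPKM, the 8 with the smallest FDR per line, the 5 with the smallest FDR for each difference between lines, DEGs of opposite direction, and the 3 list genes with the smallest FDR per line; others are named as such or as examples. Stem-loops, polyA signals and unique 50-base stretches were read from GENCODE 29, in which 75 of the 76 genes were found, 73 at the same coordinates, and promoters from RefSeq (GRCh38.p14).

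Within groups, replicates differed by more than sampling noise (chi-square per gene 1.35 to 2.17). The alternatives tried were DESeq2, limma-voom, RLE and no normalization factors, no filter and a mean of at least 50 counts, a common fit, a length correction, a replicate block, other DEG limits and leaving out each library.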

Additional observations from a re-analysis of the deposited data

Results flagged for a closer look

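For 19 histone genes the KD effect was not the same in Molm13 and THP1 at an FDR below 0.05 in the fit of all 8 libraries (edgeR's quasi-likelihood test, interaction term, 2 libraries per group). Each value is the log2 fold change in THP1 minus that in Molm13, and all were negative. Among H2B genes the differences were −3.98 for HIST1H2BD, −2.95 for HIST1H2BJ, −2.80 for HIST1H2BC, −2.48 for HIST1H2BE, −2.47 for HIST1H2BK, −2.32 for HIST1H2BF, −2.19 for HIST1H2BG, −1.82 for HIST2H2BE, −1.43 for HIST1H2BN and −1.35 for HIST2H2BF. Among H2A genes they were −3.96 for HIST1H2AC, −2.75 for HIST1H2AG, −2.73 for HIST1H2AI, −2.09 for HIST3H2A and −1.93 for HIST1H2AE. The H1 gene HIST1H1C differed by −3.07, the H3 gene HIST1H3H by −1.66, and the H4 genes HIST1H4H and HIST4H4 by −2.43 and −1.67. HIST2H2BF lost its call without Molm13 shCtrl replicate 1 or without Molm13 shPRMT9 replicate 1 (adjusted p = 0.116 in each, edgeR). HIST1H2BN shares exon positions with HIST1H2AK and HIST1H2AL, HIST2H2BF with FCGR1A, and HIST1H2AI and HIST1H2BK have 37.7% and 25.9% unique 50-base stretches, so their counts are uncertain. HIST1H2AI passed the filter on low counts only through Molm13 shPRMT9. The difference of HIST3H2A ran from −3.18 to −1.54 when 1 library was left out, without Molm13 shCtrl replicate 1 and 2 respectively. Line, table and any difference of sequencing run cannot be told apart in these differences.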

How the results depend on the processing

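The rise of histone genes in Molm13, the 0 rises in THP1 and the difference between the lines kept their direction under every alternative run. A mean of at least 50 counts left fewer genes to test: 8 higher in Molm13 (7 as DEGs), 0 lower in THP1 (0 as DEGs), 9 with a lower effect in THP1 and 3 higher in THP1 shCtrl. DESeq2 called 0 lower in THP1 by FDR and 0 as DEGs, limma-voom left 1 DEG there and a fold limit of 2 left 0; the cause was not tested. Without the filter, and in the common fit, 1 gene was lower in Molm13 (HIST1H1B), and without the filter 1 was lower in THP1 shCtrl (HIST1H4A, whose counts were at most 10 per library). Leaving out each library in turn gave 17 to 19 genes higher in Molm13 (13 to 16 DEGs), 0 to 3 lower in THP1 (0 to 2 DEGs), 16 to 17 with a lower effect in THP1, and 12 to 14 higher and 0 to 1 lower in THP1 shCtrl. The count in THP1 was 0 without shCtrl replicate 2 and 1 without shPRMT9 replicate 1, and its DEGs were 1 without either shPRMT9 replicate. Medians over all genes shifted by at most −0.0655 with another scaling.

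Same-numbered libraries did not deviate together (correlation −0.0870 in Molm13 and −0.0143 in THP1). With a replicate block, 20 genes were higher in Molm13 (16 DEGs), 3 lower in THP1, 17 had a lower effect in THP1, and the shCtrl differences turned sign, uncalled, for HIST1H2BC (−0.278) and HIST1H4H (0.0833).

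Sign changes elsewhere were of values without a call in either setting. In THP1 they were HIST1H1C (−0.00448 with library sizes alone, −0.0186 with the length correction) and HIST1H2AC (0.00282 with at least 50 counts, 0.00288 in the common fit). Without 1 library at a time, the log2 fold changes ran from −0.435 to 0.309 for HIST1H4C in Molm13, and in THP1 from −0.0171 to 0.0558 for HIST1H1C, −0.139 to 0.123 for HIST1H2AC, −0.0628 to 0.200 for HIST1H2AG, −0.23 to 0.000559 for HIST1H2BK, −0.789 to 0.315 for HIST1H3J and −0.254 to 0.102 for HIST3H2A. The differences of effects ran from −0.0509 to 1.52 for HIST1H3J and −0.204 to 1.12 for HIST1H4C, and the shCtrl differences from −0.317 to 0.471 for HIST1H2BC, −0.156 to 0.121 for HIST1H4H, −0.0421 to 0.164 for HIST1H3H, −0.831 to 0.261 for HIST1H3J and −3.31 to 0.504 for HIST1H4D.

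Depth limits the low genes: most of the family had a mean below 10 counts in each line, where a change of a few counts is not detectable.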
